A study of Mus musculus with 8 samples.

Results

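The desmosomal genes *Dsp*, *Dsc2*, *Dsc3*, *Dsg2*, *Jup*, *Pkp2* and *Pkp4* were followed through the hippocampus of adult mice, by name, in every table of expression. All 7 were found, among 46517 genes in bulk RNAseq and 24051 genes in snRNAseq, and all 7 passed the filter on low counts in bulk RNAseq. In both assays the mutant genotype was Gfap-Cre;Wls fl/- and the control genotype Gfap-Cre;Wls fl/+, at an age of 12 weeks, with 2 mice per genotype and both hippocampi of 1 mouse in each sample. Mice of both genotypes carry the *Gfap-Cre* transgene and 1 floxed allele of *Wls*, which encodes a protein that Wnts need in order to be secreted. Recombination depends on where and when the *Gfap* promoter drives Cre, so the controls keep 1 functional copy of *Wls* in recombined cells and the mutants none. The comparison asks which transcripts differ in a hippocampus whose dentate gyrus is small.

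Desmosomes are button-like junctions that tie the intermediate filaments of neighbouring cells together, and they are best known from epidermis and heart muscle. Desmogleins and desmocollins, which are cadherins, bridge the gap between the cells. Inside the cell, plakoglobin and the plakophilins, which are armadillo proteins, link the cadherins to desmoplakin, and desmoplakin holds the filaments. Plakoglobin is a close relative of β-catenin, the mediator of canonical Wnt signaling. Mature neurons are joined mainly by adherens-type and synaptic contacts, and dentate granule cells (DGCs) are known for a high level of desmoplakin transcripts.

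*Dsp* (desmoplakin) lies on chromosome 13 of GRCm38 (mm10), from 38151294 to 38198577 on the plus strand. *Jup* (plakoglobin) is on chromosome 11, from 100368958 to 100397763 on the minus strand, *Pkp4* on chromosome 2, from 59160850 to 59355208 on the plus strand, and *Pkp2* on chromosome 16, from 16213318 to 16272712 on the plus strand.

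RefSeq promoter windows (GRCm38.p6) were matched for 3 of the 7 genes. That of *Dsp* is shown because *Dsp* was the gene that passed the thresholds of the bulk comparison. It holds the 250 bases before the annotated start on the plus strand (chr13:38151044-38151293), with the GC box letters GGGCGG, on either strand, in capitals:
Dsp: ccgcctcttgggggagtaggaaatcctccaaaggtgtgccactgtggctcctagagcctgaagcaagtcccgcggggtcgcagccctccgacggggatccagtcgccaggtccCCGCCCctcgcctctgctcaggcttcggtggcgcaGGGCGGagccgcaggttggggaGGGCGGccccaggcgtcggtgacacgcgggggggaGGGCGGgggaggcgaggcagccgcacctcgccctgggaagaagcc
The window had 4 GC boxes, a G+C content of 72.4% and 22 CG pairs, against medians of 52.4% and 6 over the 32851 windows of the same length, of which 32.7% held a GC box. The core letters of TCF/LEF factors, CTTTGA on either strand, were not in this window, nor in that of *Jup* or in either window of *Pkp4*, and 13.8% of all windows held them. The E-box CAGGTG was not in the *Dsp* window either, and 17.2% of all windows held it. None of these motifs overlapped another in the *Dsp* window.

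The targeted gene was measured first. In bulk RNAseq *Wls* was at 13.2 and 13.03 CPM in control replicates 1 and 2 and at 3.67 and 6.86 CPM in mutant replicates 1 and 2, where CPM is the expected count scaled by library total and TMM factor. In the sum of all nuclei it was at 21.4 and 26.9 CPM in the controls and 7.05 and 11.4 CPM in the mutants. The snRNAseq samples held between 5304 and 10460 nuclei, with a median of 4128 to 7545 UMIs per nucleus, and 8 to 21 barcodes were shared by any pair of samples. Of these nuclei, 2336 and 2007 were deposited as DGCs in the controls but 90 and 463 in the mutants. The DGC markers *Prox1*, *C1ql2*, *Calb1*, *Plk5* and *Trpc6* were each highest in the nuclei so labeled. In bulk RNAseq the summed level of these 5 markers was 367 to 369 CPM in the controls and 91.8 to 111 CPM in the mutants, whereas the 7 choroid plexus markers summed to 65.6 to 125 CPM in the controls and to 722 to 5515 CPM in the mutants. Bulk replicates 1 and 2 also differed in *Xist* (1.05 and 518 CPM in the controls, 1.44 and 230.1 CPM in the mutants), so that replicate 2 of each genotype went against its label of male, and sex did not differ between the genotypes.

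In bulk RNAseq of the whole hippocampus the desmosomal genes differed widely in level. On the per-length scale of TPM, *Pkp4* was at 248 to 268 TPM in the 4 libraries, *Pkp2* at 33.3 to 40.4 TPM and *Jup* at 19.7 to 22.5 TPM. *Dsp* was at 23.2 and 23.8 TPM in the controls, just above *Jup*, and at 1.79 and 3.0 TPM in the mutants. The cadherins *Dsg2* at 2.07 to 4.76 TPM, *Dsc3* at 0.16 to 0.83 TPM and *Dsc2* at 0.31 to 0.42 TPM lay below *Jup* in each library. The order of *Pkp4*, *Pkp2*, *Jup*, *Dsg2* and *Dsc2* from high to low was the same in each library, while *Dsp* lay above *Jup* in the controls and below it in the mutants.

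*Dsp* was the gene of this group that passed the thresholds in bulk RNAseq. Its level was 100.4 and 103 CPM in the controls and 8.43 and 13.7 CPM in the mutants, which is 8.31% and 13.5% of the control mean, and the genotypes did not overlap. The log2 fold change was -3.19 (SE 0.23, n = 2 mice per genotype, adjusted p = 0.0185, quasi-likelihood test of edgeR, adjusted by Benjamini-Hochberg). Of the 20687 genes tested, 0.198% were lower with FC above 3 and an adjusted p below 0.05. The call rested on having both controls, since it was lost without control replicate 1 or 2, at log2 fold changes of -3.21 and -3.18. With 1 control left, such fits measure the spread between the mutants alone, and the lost call was not particular to *Dsp*. In limma on the deposited signal *Dsp* was at -3.24 and was not called (adjusted p = 0.206, Benjamini-Hochberg). The level within a replicate number fell by 3.57 on the log2 scale in replicate 1 and by 2.90 in replicate 2. In bulk tissue, fewer cells of a type and less RNA per cell cannot be told apart.

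The desmosomal cadherins, whose genes all lie on chromosome 18, differed from each other. *Dsc3* (19960930 to 20002351) and *Dsc2* (20030633 to 20059554) lie on the minus strand, 28281 bases apart, and *Dsg2* (20558074 to 20604521) follows on the plus strand after 498519 bases. *Dsg2*, a desmoglein that many simple epithelia and the heart use, was at 11.5 and 11.1 CPM in the controls and 5.69 and 6.01 CPM in the mutants. Its log2 fold change of -0.95 (SE 0.12) had an adjusted p of 0.0408 in edgeR with Benjamini-Hochberg adjustment, which 1.01% of all genes tested reached in the same direction at any fold, but the fold was below 3 and it was not called. Without control replicate 1 or 2 the adjusted p of *Dsg2* was 0.272 or 0.341, in edgeR with Benjamini-Hochberg adjustment. *Dsc3*, a desmocollin of stratified epithelia, was at 2.07 and 1.91 CPM in the controls and 0.697 and 0.415 CPM in the mutants (33 to 128 expected counts per library). The log2 fold change of *Dsc3* was -1.85 (SE 0.32, adjusted p = 0.0772, edgeR with Benjamini-Hochberg adjustment). *Dsc3* was called by DESeq2 (adjusted p = 0.0027) and by edgeR with no filter on low counts (adjusted p = 5.7e-04), both with Benjamini-Hochberg adjustment. Of 31735 genes, DESeq2 called 66 lower and 73 higher, and the fit with no filter 112 lower and 201 higher. *Dsc2*, the desmocollin with the broadest known distribution, was at 0.673 and 0.611 CPM in the controls and 0.918 and 0.717 CPM in the mutants, from 38 to 57 expected counts, with a log2 fold change of 0.34 (SE 0.30, adjusted p = 0.602, edgeR with Benjamini-Hochberg adjustment).

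The armadillo members showed small differences in bulk RNAseq. *Jup* was at 31.4 and 27.6 CPM in the controls and 30.3 and 29.4 CPM in the mutants, so that the mutants lay within the range of the controls, and its log2 fold change was 0.02 (SE 0.09). *Pkp2*, the plakophilin of heart muscle, was at 45.3 and 50.6 CPM in the controls and 51.1 and 56.6 CPM in the mutants (log2 fold change 0.17, SE 0.08). *Pkp4*, also known as p0071, which is found at adherens junctions as well as desmosomes, was at 328 and 310 CPM in the controls and 351 and 331 CPM in the mutants (log2 fold change 0.10, SE 0.06). The adjusted p of these 3 genes was 0.362 to 0.941 in edgeR with Benjamini-Hochberg adjustment. *Dsp*, *Dsg2* and *Dsc3* were lower in both mutants than in both controls, as were 25.4% of all genes tested, and *Dsc2*, *Pkp2* and *Pkp4* were higher in both mutants, as were 25.8%.

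**Figure D1:**
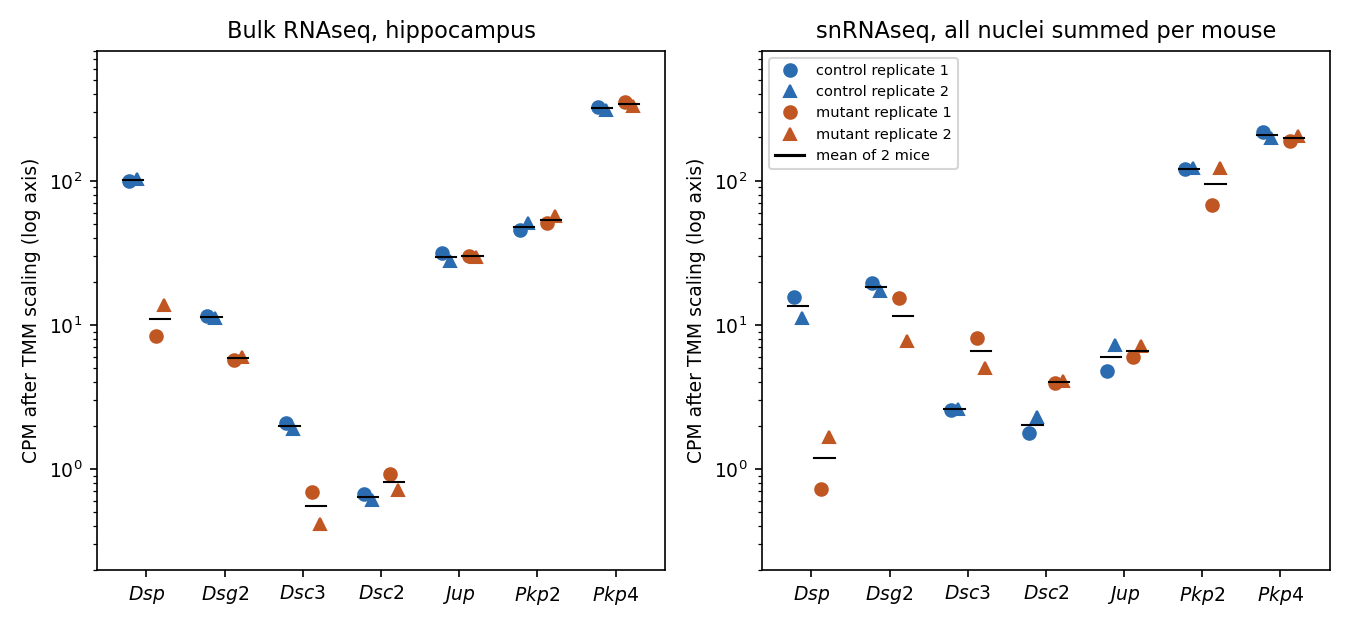
CPM after TMM scaling of each desmosomal gene on a log axis, in bulk RNAseq (left) and in the sum of all nuclei per mouse (right), with circles for replicate 1, triangles for replicate 2 and a line at the mean of 2 mice. *Dsp* lay at 100.4 and 103 CPM in control and 8.43 and 13.7 CPM in mutant bulk libraries, and *Dsc3* was lower in the mutants in bulk RNAseq but higher in the nuclei.

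The nuclei showed where each transcript was found. CPM by type is the UMI count of a gene relative to all UMIs of the nuclei of 1 deposited cell type in 1 mouse, for the 18 of 21 types with at least 10 nuclei in each sample. *Dsp* was at 46.4 and 39.0 CPM in control DGCs, and its lowest control value there did not overlap with those of any other of these 18 types. In 9 nuclei of control replicate 1 deposited as CP, which are not among the 18, it was at 67.1 CPM from 4 UMIs. The next types in order were the cluster deposited as excitatory neurons 19, at 13.4 and 9.14 CPM from 1 UMI in each control, and inhibitory neurons 14, at 4.26 and 5.99 CPM. DGC nuclei held 89.8% of all *Dsp* UMIs in control replicate 1 (528 of 588, exact 95% interval 87.1% to 92.1%) and 90.3% in control replicate 2 (635 of 703, 87.9% to 92.4%), although they made up 29.2% and 26.4% of all UMIs. These intervals cover counting error only. In the mutants the share of *Dsp* UMIs in DGC nuclei was 73.7% (14 of 19, 48.8% to 90.9%) and 67.2% (88 of 131, 58.4% to 75.1%), with DGCs making up 1.6% and 4.5% of all UMIs.

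A UMI of *Dsp* was found in 17.9% and 22.5% of control DGC nuclei and in 7.78% and 12.3% of mutant DGC nuclei. In microglia, which are not known to form desmosomes, it was found in 0 of 105 and 1 of 287 control nuclei, but these had a median of 1632 and 2434 UMIs against 4628 and 7688 in control DGCs. Thinned to 1500 UMIs each, 6.21% and 5.78% of control DGC nuclei and 4.44% and 3.67% of mutant DGC nuclei had a UMI of *Dsp*. A nucleus with *Dsp* held 1.26 and 1.41 of its UMIs on average in the controls and 2.00 and 1.54 in the mutants.

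In CA1 nuclei of the controls, the level of *Dsp* relative to DGCs lay between those of *Plk5* and *C1ql2*. It was at 2.28 and 1.68 CPM, or 4.92% and 4.31% of the level in DGCs of the same mouse. *Plk5* and *C1ql2*, which mark DGCs, were at 3.93% and 3.01% and at 6.88% and 7.02% of their DGC level in the same nuclei. In mutant CA1 nuclei *Dsp* was at 0.110 and 0.303 CPM, from 1 and 8 UMIs, or 0.324% and 1.18% of the level in DGCs, with *Plk5* at 1.40% and 3.52% and *C1ql2* at 25.7% and 6.75%. The part of free RNA in these low values of *Dsp* was not tested.

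The cadherin *Dsg2* shared DGCs with *Dsp* but extended to other neurons. Its level was 44.7 and 49.2 CPM in control DGCs and 39.4 and 46.6 CPM in excitatory neurons 7, so that these leading types overlapped, followed by excitatory neurons 13 at 20.1 and 29.9 CPM. DGC nuclei held 69.4% and 74.0% of the *Dsg2* UMIs of the controls, but 2.8% and 13.6% of those of the mutants, where excitatory neurons 7 held 32.2% and 19.3%. *Dsc3* was found mainly in excitatory neurons 7, at 35.7 and 64.5 CPM in the controls, above excitatory neurons 10 at 9.10 and 15.3 CPM. In control DGCs *Dsc3* was at 0.791 and 0.799 CPM, from 9 and 13 UMIs. *Dsc2* was highest in inhibitory neurons 12, at 37.7 and 35.0 CPM in the controls, ahead of excitatory neurons 7, where the controls differed (2.46 and 20.8 CPM), and inhibitory neurons 5 (8.13 and 9.09 CPM). In control DGCs *Dsc2* was at 0.703 and 0.676 CPM, so that *Dsg2* was the one desmosomal cadherin of this group above 1 CPM there.

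Of the armadillo members, *Jup* was low in DGCs and highest in cells other than neurons. It was at 38.1 and 65.1 CPM in control oligodendrocytes and at 46.9 and 51.9 CPM in the cluster deposited as inhibitory neurons 14, which overlapped, and then at 25.0 and 19.4 CPM in astrocytes. The cluster deposited as inhibitory neurons 14 went against its name. Over all samples the 3 inhibitory neuron markers summed to 67.7 CPM there, against 610 CPM in inhibitory neurons 5. The 4 endothelium markers summed to 2050 CPM in this cluster and the 7 meninges markers to 1831 CPM. The 4 astrocyte markers summed to 983 CPM and the 4 oligodendrocyte markers to 625 CPM. The cluster deposited as excitatory neurons 19 went against its name too. It held 104 CPM of the 3 excitatory neuron markers, against 338 to 474 CPM in excitatory neurons 7, 8, 10 and 13. It held 756 CPM of the meninges markers, against 3.94 to 90.6 CPM in those other clusters. Its 878 CPM of the 4 astrocyte markers lay between the 774 and 1046 CPM of excitatory neurons 8 and 13, and did not set it apart. In control DGCs *Jup* was at 2.64 and 2.27 CPM.

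*Pkp2* was found in pyramidal and mossy cells more than in DGCs. It was at 226 and 242 CPM in control CA3, 186 and 185 CPM in CA1, 169.1 and 201 CPM in CA2, 170.4 and 156 CPM in mossy cells and 87.6 and 99.4 CPM in DGCs. CA1, CA2 and mossy cells were not separated by the spread between the controls in every case, and CA3 and DGCs lay above and below them without overlap. *Pkp4* was detected in each of the 18 types, from 68.3 CPM in astrocytes to 538 CPM in oligodendrocytes (mean of the controls), with oligodendrocytes at 581 and 495 CPM above inhibitory neurons 14 at 294 and 333 CPM. Control DGCs held 215 and 181 CPM of *Pkp4*.

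**Figure D2:**
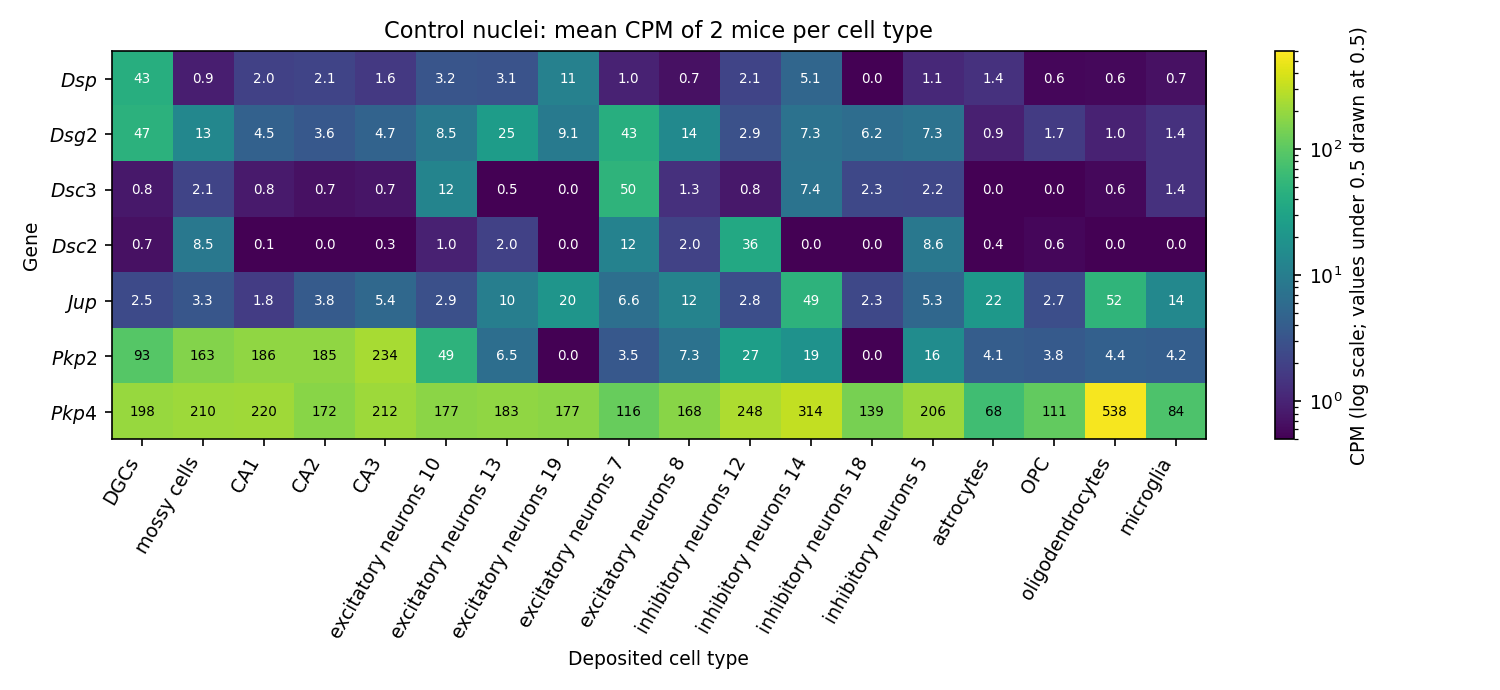
Mean CPM of each desmosomal gene (rows) in control nuclei of 18 deposited cell types (columns), as the mean of 2 mice, with a logarithmic color scale. *Dsp* and *Dsg2* reach 42.7 and 47.0 CPM in DGCs, *Dsc3* reaches 50.1 CPM in excitatory neurons 7 and *Dsc2* 36.3 CPM in inhibitory neurons 12, and *Pkp4* is found in each type.

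No pair of these genes shared its profile over cell types closely. Over the 21 deposited types (log2(CPM + 1), mean of the controls), the highest correlation was that of *Dsc3* and *Dsg2* (r = 0.54) and the lowest that of *Dsg2* and *Jup* (r = -0.53), and *Dsp* and *Dsg2* gave r = 0.09. The types of a mouse share a library, and types of few nuclei are noisy, so these are descriptions. Among 13430 genes that reached 20 CPM in some type, those most like *Dsp* included *Ocln*, which encodes the tight junction protein occludin (r = 0.85), and *Hist1h4i* (r = 0.80). Their likeness rested in part on 9 nuclei deposited as CP, and over the 18 types with enough nuclei r was 0.70 and 0.69. The genes most like *Dsg2* were *Pde6a*, *Ap1s3* and *Syt7* (r = 0.84, 0.83 and 0.82), and those most like *Dsc3* included *Cckbr* and *Bglap3* (r = 0.80 and 0.78). For *Dsc2* they were *Gm34623*, *Jhy* and *Togaram2* (r = 0.77, 0.74 and 0.73), and for *Jup* *Selenop*, *Rhog* and *Lama2* (r = 0.89 in each case). For *Pkp2* they were *Gpr22*, *Galnt17* and *Kcnip2* (r = 0.85, 0.83 and 0.82), and for *Pkp4* they included *Agpat4* and *Eml2* (r = 0.76 in each case). Over the 18 types r was 0.76, 0.76 and 0.78 for the genes named with *Dsg2* and 0.74 and 0.77 with *Dsc3*. It was 0.70, 0.75 and 0.64 with *Dsc2* and 0.84, 0.82 and 0.84 with *Jup*. With *Pkp2* it was 0.86, 0.83 and 0.83, and with *Pkp4* 0.84 and 0.77. *Pde6a*, *Ap1s3*, *Cckbr* and *Bglap3* were highest in inhibitory neurons 15, and *Jhy* and *Togaram2* in CP, types outside the 18.

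Within DGCs, a UMI of *Dsp* and a UMI of *Dsg2* showed no common direction of association in the controls. In control replicate 1, 419 of 2336 DGC nuclei had *Dsp*, 440 had *Dsg2* and 70 had both, and in control replicate 2, 451 of 2007 had *Dsp*, 596 had *Dsg2* and 148 had both. Within 5 strata of UMIs the odds ratio was 0.833 and 1.10. *Fst* (follistatin) and *Plk5*, which mark different sides of the DGC cluster, gave values on opposite sides of 1 in the controls, but not in every case in the mutants. For *Dsp* the odds ratio was 2.14 and 2.49 with *Fst* and 0.592 and 0.580 with *Plk5* in the controls. For *Dsg2* it was 0.671 and 0.667 with *Fst* and 1.21 and 1.32 with *Plk5*. In mutant replicate 2 the odds ratio of *Dsp* was 3.83 with *Fst* and 0.484 with *Plk5*, and that of *Dsg2* was 0.218 with *Fst* and 0.786 with *Plk5*. In mutant replicate 1, where 7 of 90 nuclei had *Dsp* and 9 had *Dsg2*, the odds ratio of *Dsp* was 4.00 with *Fst* and 1.40 with *Plk5*, and that of *Dsg2* was 0 with *Fst* and 2.36 with *Plk5*. Nuclei are not replicates, and these ratios are given without a test.

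Dorsal and ventral DGCs were compared by *Lct* and *Trhr*, which are known to be richer in the dorsal and in the ventral hippocampus. The level of *Dsp* was 56.1 and 49.1 CPM in control DGC nuclei with *Lct* and without *Trhr*, and 41.3 and 21.8 CPM in those with *Trhr* and without *Lct*. The exact 95% counting intervals overlapped in control replicate 1 (44.2 to 70.4 and 23.6 to 67.0 CPM) but not in control replicate 2 (41.6 to 57.5 and 12.7 to 34.8 CPM). In mutant replicate 2, where 29.8% of DGC nuclei were of the *Trhr* kind against 2.61% and 4.09% in the controls, *Dsp* was at 33.3 CPM in 19 nuclei with *Lct* (10.8 to 77.7 CPM) and at 20.0 CPM in 138 nuclei with *Trhr* (12.5 to 30.3 CPM). Mutant replicate 1 held 4 and 18 such nuclei, with 1 and 0 UMIs of *Dsp*. For *Dsg2* the control values were 44.2 and 47.8 CPM with *Lct* and 30.9 and 32.0 CPM with *Trhr*, with intervals that overlapped in each control.

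When UMIs of all nuclei of a mouse were summed, none of the 7 genes was called. In these sums 0% of 20575 genes were called at FC above 2 and an adjusted p below 0.05 in edgeR with Benjamini-Hochberg adjustment, 737 genes passed the fold at an unadjusted p below 0.05, and DESeq2 called 172 genes lower and 119 higher, with *Dsp* and *Dsc3* among them. Of the 7 genes, *Dsp* and *Dsc3* passed the fold at that p in edgeR, as did 3.58% of all genes tested. *Dsp* was at 15.6 and 11.2 CPM in the controls and 0.732 and 1.66 CPM in the mutants, a log2 fold change of -3.41 (SE 0.41, adjusted p = 0.161, edgeR with Benjamini-Hochberg adjustment). *Dsg2* was at 19.5 and 17.3 CPM in the controls and 15.3 and 7.76 CPM in the mutants (log2 fold change -0.69, SE 0.33). Both genes were lower in both mutants, as were 24% of all genes tested. *Dsc3* was at 2.58 and 2.62 CPM in the controls and 8.13 and 5.06 CPM in the mutants (log2 fold change 1.33, SE 0.31), and *Dsc2* at 1.78 and 2.29 CPM in the controls and 3.97 and 4.08 CPM in the mutants (0.98, SE 0.27). These 2 desmocollins were higher in both mutants, as were 24.5% of all genes tested. *Pkp2* was at 121 and 122 CPM in the controls but at 68.3 and 123 CPM in the mutants, so that 1 mutant stood apart. *Jup* and *Pkp4* had log2 fold changes of 0.13 (SE 0.28) and -0.08 (SE 0.14).

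Clusters that hold *Dsc3* differed between mice in their share of nuclei. Excitatory neurons 7 made up 5.04% and 2.71% of the nuclei in the controls and 14.2% and 3.37% in the mutants, so that mutant replicate 2 lay below control replicate 1. Excitatory neurons 10 made up 1.14% and 0.556% in the controls and 5.39% and 3.52% in the mutants. The cluster deposited as inhibitory neurons 15 made up 0.232% and 0.0139% in the controls and 2.70% and 0.975% in the mutants. Inhibitory neurons 15 held 17.5% and 22.1% of the *Dsc3* UMIs of the mutants. In that cluster the inhibitory markers summed to 16.2 CPM and the excitatory markers to 221 CPM. In bulk RNAseq, made from other hippocampi, *Dsc3* was lower in both mutants, and the difference between the assays was not tested.

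**Figure D3:**
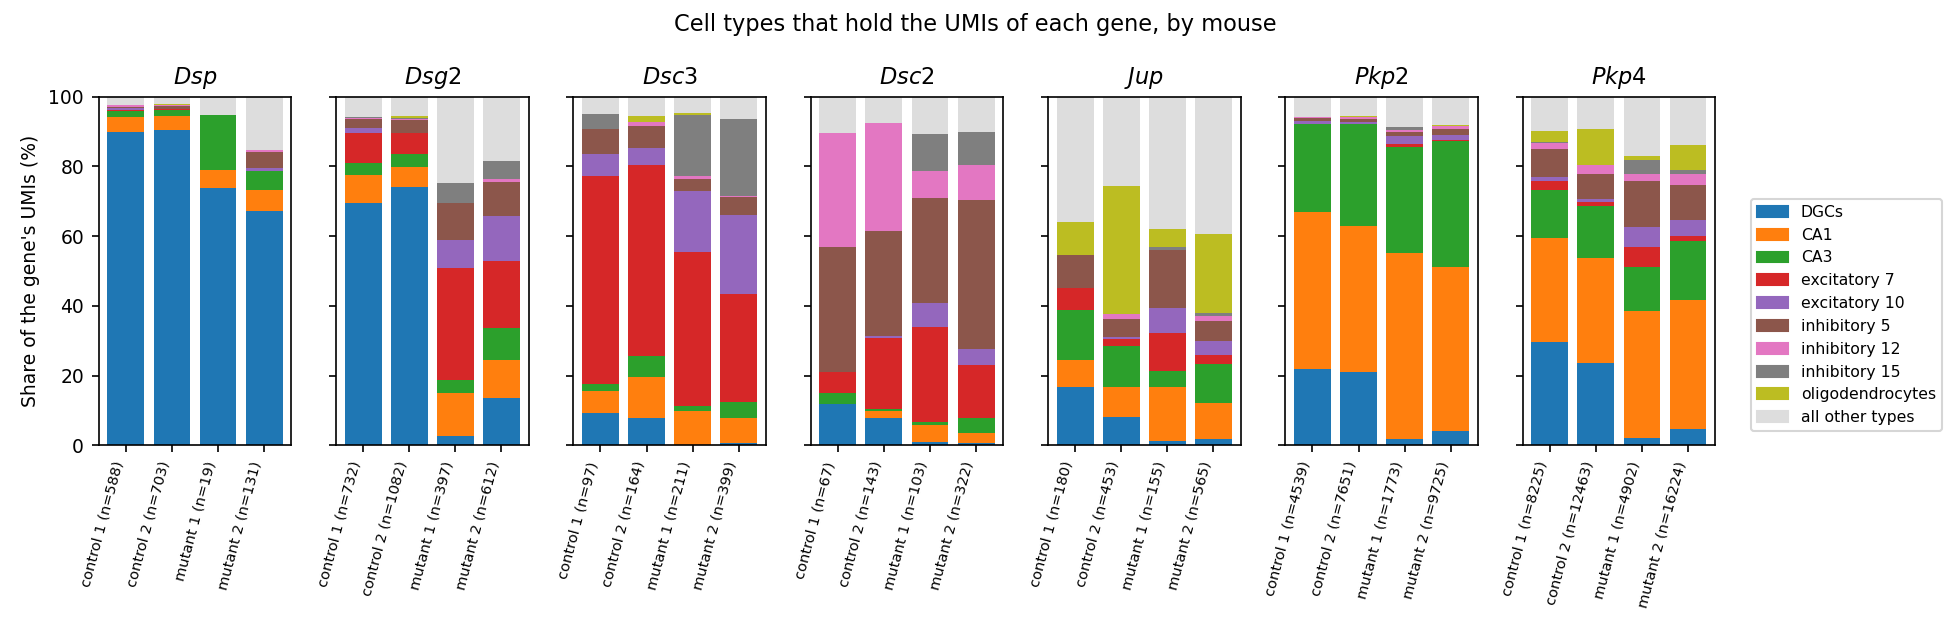
Share of the UMIs of each desmosomal gene that fell in each deposited cell type, as stacked bars with 1 bar per mouse and the total UMIs of the gene as n. DGCs hold 89.8% and 90.3% of *Dsp* in the controls, and the bars of *Dsg2* and *Dsc3* change their makeup between the genotypes.

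For each mouse the mean level of a gene in control nuclei of each type was weighted by that mouse's UMIs per type, and the measured level was divided by the result. Each control was set against the levels of the other control in the same way, to show the spread. *Dsp* in the mutants was 0.308 and 0.387 times the weighted level, whereas the controls gave 1.21 and 0.832. *Dsg2* in the mutants was at 1.18 and 0.880 times, beside 0.934 and 1.06 in the controls. *Dsc3* was at 1.15 and 1.82 times and *Dsc2* at 1.18 and 1.503 times, beside controls at 0.627 and 1.62 and at 0.665 and 1.27. *Pkp2* was at 0.639 and 1.02 times, and *Jup* and *Pkp4* in the mutants lay between 0.944 and 1.15 times. Any free RNA from DGCs would be counted in the control levels of the other types, and its part in the ratio of *Dsp* was not tested.

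**Figure D4:**
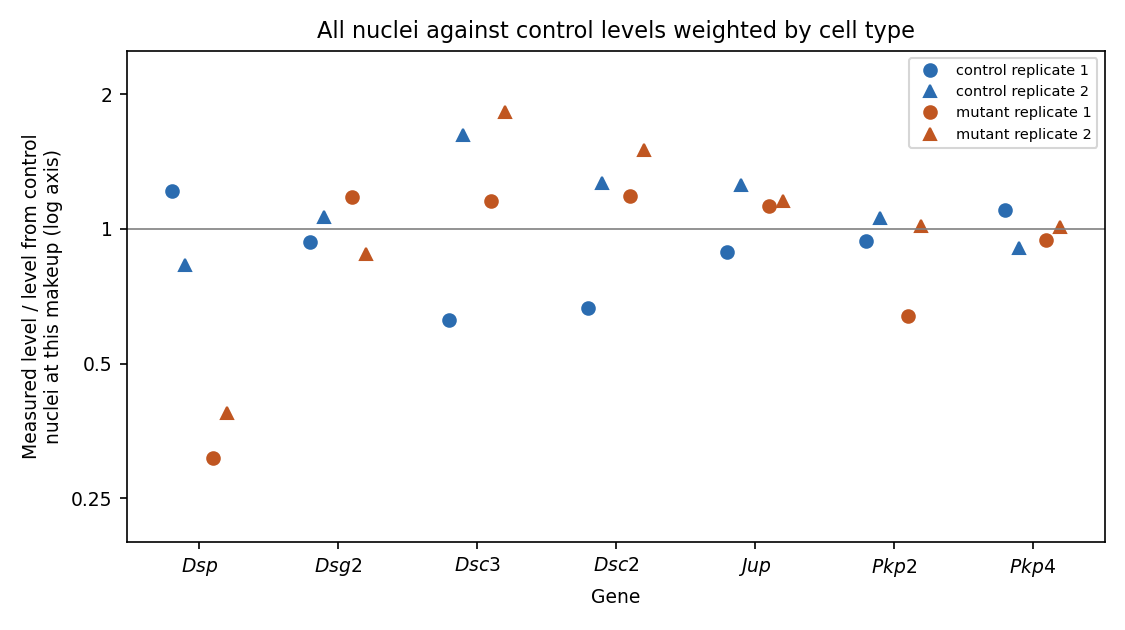
Level of each desmosomal gene in all nuclei of a mouse divided by the level that control nuclei give at the same makeup of cell types, on a log axis, with circles for replicate 1 and triangles for replicate 2. *Dsp* in the mutants sits at 0.308 and 0.387, below both controls at 1.21 and 0.832.

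Within nuclei other than DGCs, 0% of 19896 genes were called and none of the 7 genes was among them. In these nuclei 427 genes passed the fold at an unadjusted p below 0.05 in edgeR, and DESeq2 called 48 genes lower and 22 higher, with 0 of the 7 genes among them. Of the 7 genes, 2 passed the fold at that p, *Dsp* and *Dsc3*, as did 2.15% of all genes tested. *Dsp* was at 2.26 and 1.46 CPM in the controls and 0.195 and 0.578 CPM in the mutants (log2 fold change -2.12, SE 0.54, adjusted p = 0.449, edgeR with Benjamini-Hochberg adjustment). The DGC marker *C1ql2*, at 3.76 and 3.97 CPM in the controls and 1.21 and 1.13 CPM in the mutants, moved in the same direction in the same nuclei.

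Within DGCs, 5 of the 7 genes passed the filter and none was called in edgeR or in DESeq2, where 0.64% of 15003 genes were called lower. None of the 5 passed FC above 2 at an unadjusted p below 0.05 in edgeR, as 6.16% of genes did. *Dsg2* was at 44.7 and 49.2 CPM in the controls and 26.6 and 24.2 CPM in the mutants. Its log2 fold change was -0.91 (SE 0.21, adjusted p = 0.0683, edgeR with Benjamini-Hochberg adjustment), and the difference was called when the 10% of nuclei with the most UMIs were left out (adjusted p = 0.0337, edgeR with Benjamini-Hochberg adjustment). In that fit 118 of 14470 genes were called lower and 164 higher. After thinning to 1500 UMIs, *Dsg2* was found in 6.76% and 7.47% of control and in 1.11% and 2.81% of mutant DGC nuclei. *Dsp* was at 46.4 and 39.0 CPM in control and 33.8 and 25.7 CPM in mutant DGCs (log2 fold change -0.62, SE 0.22, adjusted p = 0.219, edgeR with Benjamini-Hochberg adjustment), where mutant replicate 1 contributed 14 UMIs from 90 nuclei. Both were lower in both mutants, as were 26.1% of genes tested in DGCs. *Pkp2*, *Pkp4* and *Jup* had log2 fold changes of 0.16, 0.23 and 0.40 in DGCs, each within 1.5 SE of 0.

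**Figure D5:**
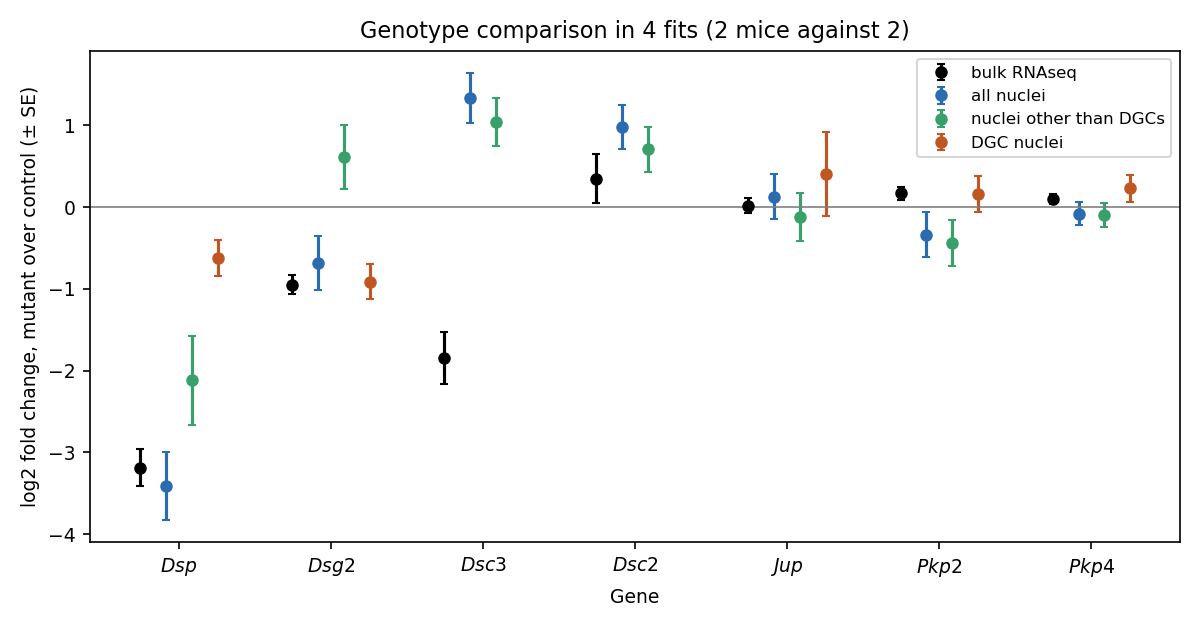
Log2 fold change of each desmosomal gene, mutant over control, with its SE, in bulk RNAseq, all nuclei, nuclei other than DGCs and DGC nuclei (2 mice per genotype in each). *Dsp* falls by 3.19 in bulk RNAseq and is at -0.62 within DGCs, and *Dsc3* lies at -1.85 in bulk RNAseq and 1.33 in all nuclei.

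Across the 18 types, 51 of 126 tests of a member in a type could be made and none passed the thresholds in edgeR or DESeq2, against 0.19% of all tests of a gene in a type in edgeR, while 4 passed FC above 2 at an unadjusted p below 0.05 in edgeR, as did 3.02% of all such tests. These were *Dsp* in CA1, *Dsc3* in excitatory neurons 10, *Dsc2* in inhibitory neurons 12 and *Pkp2* in mossy cells. *Pkp4* in astrocytes was at 71.5 and 65.0 CPM in the controls and 97.4 and 92.3 CPM in the mutants, a log2 fold change of 0.52 (adjusted p = 0.383, edgeR with Benjamini-Hochberg adjustment). *Dsg2*, *Dsc2* and *Pkp2* are followed here, since the mutants lay above both controls in one type and below both in another. This also held for *Pkp4*, above in astrocytes and below in inhibitory neurons 18 (132 and 145 CPM in control, 106 and 130 CPM in mutant). It held for *Jup* as well, above in DGCs (2.64 and 2.27 CPM in control, 4.83 and 2.92 CPM in mutant) and below in CA3 (5.11 and 5.74, then 2.38 and 4.68 CPM). Of all genes tested, 789 of 4268 were lower in both mutants in inhibitory neurons 18. *Dsg2* was at 39.4 and 46.6 CPM in control and 50.4 and 65.7 CPM in mutant excitatory neurons 7, and at 15.2 and 1.91 CPM in control and 19.0 and 22.2 CPM in mutant excitatory neurons 10, whereas the mutants were lower in DGCs. Both mutants lay above both controls for 17.9% of all genes tested in excitatory neurons 7 and for 20.4% in excitatory neurons 10. *Dsc2* was at 37.7 and 35.0 CPM in control and 16.6 and 15.9 CPM in mutant inhibitory neurons 12, but at 8.13 and 9.09 CPM in control and 9.30 and 16.1 CPM in mutant inhibitory neurons 5. Of all genes tested, 19.9% were lower in both mutants in inhibitory neurons 12 and 21.6% higher in both in inhibitory neurons 5. *Pkp2* was at 170.4 and 156 CPM in control and 80.4 and 66.5 CPM in mutant mossy cells, but at 169.1 and 201 CPM in control and 212 and 257 CPM in mutant CA2. Of all genes tested, 19.6% were lower in both mutants in mossy cells and 20.6% higher in both in CA2.

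The difference of the genotype effect between a pair of types was fitted across all genes, with the types of a mouse matched, in 4 pairs chosen after these values were seen. The choice favors large differences, and the adjusted p-values below are adjusted over genes only. For *Dsg2* the effect was 1.42 higher on the log2 scale in excitatory neurons 7 than in DGCs (SE 0.26, adjusted p = 0.0407, edgeR with Benjamini-Hochberg adjustment, where 0.332% of 12961 genes were called). In excitatory neurons 10 it was 2.10 higher than in DGCs (SE 0.49, adjusted p = 0.0178, edgeR with Benjamini-Hochberg adjustment, 0.988% of genes called). For *Dsc2* the effect was 1.90 higher in inhibitory neurons 5 than in inhibitory neurons 12 (SE 0.39, adjusted p = 9.4e-04, edgeR with Benjamini-Hochberg adjustment, 0.431% of genes called). For *Pkp2* it was 1.61 higher in CA2 than in mossy cells (SE 0.29, adjusted p = 0.0286, edgeR with Benjamini-Hochberg adjustment, 0.164% of genes called). The call of *Dsg2* in excitatory neurons 7 was also lost without control replicate 1 or 2 (adjusted p = 0.109 and 0.0891), that of *Dsg2* in excitatory neurons 10 without control replicate 2 (0.322) and that of *Dsc2* without control replicate 2 (0.0868), in edgeR with Benjamini-Hochberg adjustment. Without control replicate 1, where *Dsg2* then rested on 1 UMI in control excitatory neurons 10, the difference from DGCs was 4.51. Each of the 4 calls was lost without mutant replicate 2, with adjusted p of 0.176 to 0.744, and when the types of a mouse were not matched, with adjusted p of 0.223 to 1.00, in edgeR with Benjamini-Hochberg adjustment.

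*Pkp2* in CA1 showed the weight of 1 mouse. It was at 186 and 185 CPM in the controls and at 104 and 172 CPM in the mutants, and mutant replicate 1 also had the fewest UMIs per CA1 nucleus, with a median of 5270 against 8215 to 12164. The log2 fold change was -0.44 (SE 0.23), and -0.13 without mutant replicate 1. Thinned to 1500 UMIs, a UMI of *Pkp2* was found in 25.0% and 24.0% of control and 13.8% and 22.4% of mutant CA1 nuclei.

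Other genes of cell junctions and filaments gave 0 calls in edgeR at the thresholds above, in bulk RNAseq, in the sums of nuclei and within the cell types. Other settings gave calls. At FC above 2 in bulk RNAseq edgeR called *Ppl*, among 76 genes lower and 6 higher of 20687. *Ppl* was at 2.55 and 2.54 TPM in the controls and 0.86 and 1.07 TPM in the mutants. In bulk RNAseq 4 of the 33 genes tested, *Krt8*, *Krt18*, *Perp* and *Pkp1*, named here after their values were seen, passed FC above 3 at an unadjusted p below 0.05. Of all 20687 genes tested, 310 did so. DESeq2 called *Krt8* and *Krt18*, among 66 genes lower and 73 higher of 31735. With no filter on low counts edgeR called all 4, among 112 genes lower and 201 higher of 31735. The keratin genes *Krt8* and *Krt18* had log2 fold changes of 3.24 and 3.53, in the libraries where the choroid plexus markers were higher. *Perp* was also higher in both mutants. *Pkp1* went the other way, at 0.32 and 0.56 TPM in the controls and 0.08 and 0.02 TPM in the mutants. In all nuclei *Nefl* and *Evpl* passed FC above 2 at an unadjusted p below 0.05, as did 3.58% of all genes tested. DESeq2 called *Nefl*, at -1.13, among 172 genes lower and 119 higher of 24051. With a replicate block edgeR called *Nefl* too, among 220 genes lower and 223 higher of 20575. Within cell types 14 of 329 tests passed FC above 2 at that p, as did 3.02% of all such tests, and DESeq2 called 0. With no filter edgeR called 7 of 582 tests within cell types (*Nefl*, *Pkp1* and *Vim*), and with a replicate block 5 of 329 (*Nefl*). Of 11 further desmosomal genes, such as other desmogleins and plakophilins, 6 were tested in bulk RNAseq and 0 were called, with a median log2 fold change of -0.26. *Perp*, a membrane protein of desmosomes, was the highest of them, at 3.08 to 14.9 TPM. Of 13 adherens junction genes, 13 were tested and 0 called (median 0.00), and *Ctnnb1*, which encodes β-catenin, was the highest at 282 to 338 TPM. Of 14 genes of intermediate filaments and their linkers, 14 were tested and 0 called (median 0.20), with *Nefl*, the light neurofilament, highest at 382 to 443 TPM. The median over the 7 desmosomal genes was 0.02 and that over all 20687 genes 0.01.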

How the data were processed

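Each assay covered 2 mutant and 2 control mice. For bulk RNAseq the authors deposited an expected count and a TPM value per gene (RSEM 1.3.0 with Bowtie2 2.2.9, mm10), and a matrix of normalized signal. For snRNAseq the authors deposited a count of UMIs per gene and nucleus (Cell Ranger 3.1.0) and a cell type for each nucleus. Expected counts were rounded, and UMIs were summed per mouse and type. Genotypes were compared with edgeR 4.0.16 in R 4.3.3 (filterByExpr, TMM, quasi-likelihood test, Benjamini-Hochberg adjustment over all genes tested), at FC above 3 in bulk RNAseq and above 2 in nuclei, with an adjusted p below 0.05. These p-values measure the spread between 2 mice per genotype, and an exact two-sided permutation test of a single value could not go below p = 0.333. Bulk libraries held 56002302 to 79576119 expected counts and snRNAseq samples 26307081 to 76486132 UMIs. Deposited types were used as named there, with no further removal of doublets. The types CP, EC and inhibitory neurons 15, with fewer than 10 nuclei in a sample, were described and not tested. Nuclei were thinned to 1500 UMIs for shares of nuclei with a UMI, and their intervals are exact (Clopper-Pearson).

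The named genes were the 7 members, *Wls*, the highest gene of each junction list in TPM, the 3 genes most like each member over cell types (some are not reported here), cell type markers, *Lct*, *Trhr*, *Fst*, *Xist* and *Ddx3y*. The members, lists and markers were chosen with earlier results of these data known. Alternatives were DESeq2, limma on the deposited signal (pseudocount 1), RLE scaling, no filter, another fold, a replicate block, leaving out the 10% of nuclei with the most UMIs and leaving out each mouse. The fits were tested on simulated data.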

Additional observations from a re-analysis of the deposited data

Results flagged for a closer look

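4 genes were marked because a genotype difference ran in opposite directions between assays or cell types. For cell types, the marking covered DGCs, the types highest in each gene, the pairs of types tested, and CA1 for *Dsp* and *Pkp2*. Other types were not searched. *Dsc3* had a log2 fold change of -1.85 in bulk RNAseq and 1.33 in the sum of all nuclei, with both mutants on the same side of both controls in each assay, and the difference between the assays was not tested. *Dsc2* had a log2 fold change of -1.11 in inhibitory neurons 12 and 0.64 in inhibitory neurons 5. *Dsg2* was at -0.91 in DGCs, 0.48 in excitatory neurons 7 and 1.22 in excitatory neurons 10. *Pkp2* was at -1.18 in mossy cells, -0.44 in CA1 and 0.41 in CA2. The pairs of types were tested, after their values were seen, except CA1 against CA2 for *Pkp2*, which was not tested.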

How the results depend on the processing

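*Dsp* in bulk RNAseq was -3.24 in limma on the deposited signal and lost its call (adjusted p = 0.206, Benjamini-Hochberg), so that limma called 0 of the 7 genes. Over all 20687 genes limma called 5 lower and 2 higher. DESeq2 and the fit with no filter called 2 of the 7 genes, adding *Dsc3* at -1.86 and -1.85. Of 31735 genes these 2 fits called 66 and 112 lower and 73 and 201 higher. In all nuclei DESeq2 called 2 genes, *Dsp* at -3.44 and *Dsc3* at 1.31. The labels tie samples of different genotype by a replicate number alone, and bulk libraries of one number also had like *Xist* levels. The deviations of same-numbered samples correlated at 0.0208 in bulk RNAseq, 0.447 in all nuclei, 0.451 outside DGCs and 0.163 in DGCs, in 2 pairs each. With a replicate block 2 of the 7 genes were called in all nuclei (*Dsp* at -3.37, *Dsc3* at 1.29, beside 220 genes lower and 223 higher of all tested). Within cell types 2 were called, *Dsp* in CA1 and *Pkp2* in mossy cells, and *Jup* in oligodendrocytes was at -0.059. The block called 39 genes lower and 85 higher of 16785 in CA1, and 71 lower and 132 higher of 7289 in mossy cells. With no filter the same 2 were called within types. That fit called 18 genes lower and 7 higher of 23746 in CA1, and 51 lower and 95 higher of 18983 in mossy cells. Without the 10% of nuclei with the most UMIs 1 was called (*Dsg2* in DGCs at -1.04), *Jup* was at -0.0079 in DGCs and 0.083 in inhibitory neurons 14, and the share of *Dsp* UMIs in control DGCs was 92.9% and 93.8%. Thinned shares of DGC nuclei were 6.76%, 7.47%, 1.11% and 2.81% for *Dsg2* and 6.21%, 5.78% and 3.67% for *Dsp*, lower because fewer UMIs are kept. With mice not matched, the differences between types were 1.32 and 2.07 (*Dsg2*), 1.78 (*Dsc2*) and 1.57 (*Pkp2*) and lost their calls, as did *Dsc2* at 1.75 without the top nuclei. The cause of the other changes was not tested. Leaving out 1 mouse at a time gave the following ranges of the log2 fold change. In bulk RNAseq *Dsp* ranged from -3.60 to -2.89, *Dsc3* from -2.26 (called, without mutant replicate 1) to -1.52 and *Jup* from -0.074 to 0.11, with 0 to 2 genes called. In all nuclei *Dsp* ranged from -4.19 to -3.02, *Jup* from -0.15 to 0.45 and *Pkp2* from -0.83 to 0.018, with 0 to 1 called. Outside DGCs *Dsg2* ranged from -0.025 to 1.08 and *Jup* from -0.41 to 0.26, and in DGCs *Pkp2* ranged from -0.41 to 0.36. Within other types, with 0 to 1 called, *Jup* ranged from -0.012 to 0.28 in astrocytes, -0.18 to 0.65 in oligodendrocytes and -0.91 to 0.12 in inhibitory neurons 14, *Pkp2* from -0.31 to 0.13 in CA3, *Dsc2* from -0.11 to 2.91 and *Dsc3* from -0.39 to 0.57 in excitatory neurons 7, and *Pkp4* from -0.17 to 0.038 in inhibitory neurons 12 and -0.059 to 0.57 in inhibitory neurons 14. The differences between types ranged from 1.08 to 1.57 and from 1.35 to 4.51 for *Dsg2*, from 1.23 to 2.07 for *Dsc2* and from 1.26 to 1.82 for *Pkp2*. RLE scaling and another fold threshold changed no call of the 7 genes among these results.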

Other observations

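The deposited types with too few nuclei for a test also held desmosomal transcripts. In the 184 nuclei deposited as CP of mutant replicate 2, *Pkp2* was at 58.4 CPM, *Dsg2* at 32.3 CPM (31 UMIs) and *Dsp* at 12.5 CPM (12 UMIs). In the cluster deposited as inhibitory neurons 15, *Dsc3* was at 47.3 CPM in the 143 nuclei of mutant replicate 1 and at 102.5 CPM in the 102 nuclei of mutant replicate 2, beside 29.2 CPM in 15 nuclei of control replicate 1. In 9 nuclei of control replicate 2 deposited as EC, *Jup* had 7 UMIs and *Dsp* 3, and in 9 nuclei of control replicate 1 deposited as CP, *Pkp2* had 5 UMIs (83.9 CPM) and *Dsp* 4 (67.1 CPM).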
